A study of Mus musculus with 6 samples.

Results

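The genes described here encode adhesion G protein-coupled receptors, the subunits of heterotrimeric G proteins and the regulators of G protein signalling (RGS). They were chosen by symbol: the Adgr receptors, the Gα genes of the Gi/o/z, Gs/olf, Gq/11 and G12/13 families, the Gβ genes, the numbered Gγ genes and the numbered Rgs genes. The rule found 76 of the 49523 symbols in the table, and values are given for the 38 whose counts over the 6 libraries sum to at least 60. The samples are RNA-seq libraries of EO771, a mouse mammary carcinoma line, labelled as cancer stem cells (CSC, 3 libraries) or as cells that are not (non-CSC, 3 libraries). No treatment, genotype or time is given for either group. How stem cells were separated from the rest is not stated in any source used here. Nothing says that the replicates were separate cultures, so each p-value reflects the scatter of these libraries alone, which may be technical.

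An adhesion receptor has a long extracellular region that binds matrix or proteins of neighbouring cells, and many cut themselves next to the membrane, which frees a tethered agonist. The activated receptor loads a Gα subunit with GTP, and Gα and the Gβγ dimer then act on separate effectors: Gαs stimulates and Gαi inhibits adenylyl cyclase, and Gαq and Gα11 activate phospholipase C beta. RGS proteins speed the hydrolysis of GTP on Gα and so shorten the signal. A Gγ subunit is held at the membrane by a lipid on its carboxyl end and partners with Gβ for the life of the protein.

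Totals were 32204112 to 35971131 counts in non-CSC libraries and 27099879 to 28205651 in CSC libraries, and the 76 genes took 0.401% to 0.406% and 0.425% to 0.427% of them. The counts are not from molecular identifiers, so limits given for counts of 0 cover counting error only. Levels are given as CPM, the count scaled to the total of its library, as means of non-CSC and then CSC unless said otherwise. Whether any library stood apart within its group was not tested. In chi-square per degree of freedom, non-CSC replicate 1 differed from replicates 2 and 3 by 7.30 and 5.74, and those from each other by 4.48. Pairs of CSC libraries differed by 3.21 to 4.03. Of 9 epithelial markers 8 were tested, 4 higher and 2 lower: Krt7 (501 to 1057 CPM), Krt8, Krt14 and Krt19 were higher, and Epcam (21.3 to 10.3 CPM) and Krt5 (3.64 to 1.01 CPM) lower. Of those not called, Krt18 averaged 1255 and 1267 CPM in non-CSC and CSC, while Cdh1 averaged 0.952 and 0.752 CPM. The summed level of the 9 markers was 3313 to 3468 CPM in non-CSC and 4069 to 4257 CPM in CSC. In bulk RNA, fewer cells of a type and less RNA per cell cannot be told apart.

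Of the 38 genes with values, 26 differed between CSC and non-CSC at an adjusted p under 0.05, 13 higher and 13 lower in CSC (edgeR quasi-likelihood test, Benjamini-Hochberg adjustment over all 17630 genes tested). Every fold change compares 3 CSC with 3 non-CSC libraries, and its error is the standard error (SE). The share of 68.4% is near that of all genes tested, 66.5%, with 33.4% higher and 33.1% lower, and near the 74% of the protein-coding genes tested. Changes of at least 2-fold were found for 6 of the 38, or 15.8%, against 12.1% of all genes; 4 were higher and 2 lower, beside 8.01% and 4.09% of all genes. The groups did not overlap in CPM for 28 of the 38, against 69.3% of all genes. The median log2 fold change of the 38 was 0.06, beside 0.01 for all genes tested, and the median of its size 0.35, beside 0.33. By count, then, these genes were near the background. The even split moved with the scaling, to 15 higher and 9 lower under both upper-quartile and plain library-size scaling. All genes tested moved the same way, to 6700 higher and 5066 lower and to 6781 and 4970, from 5894 and 5838.

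**Figure D1:**
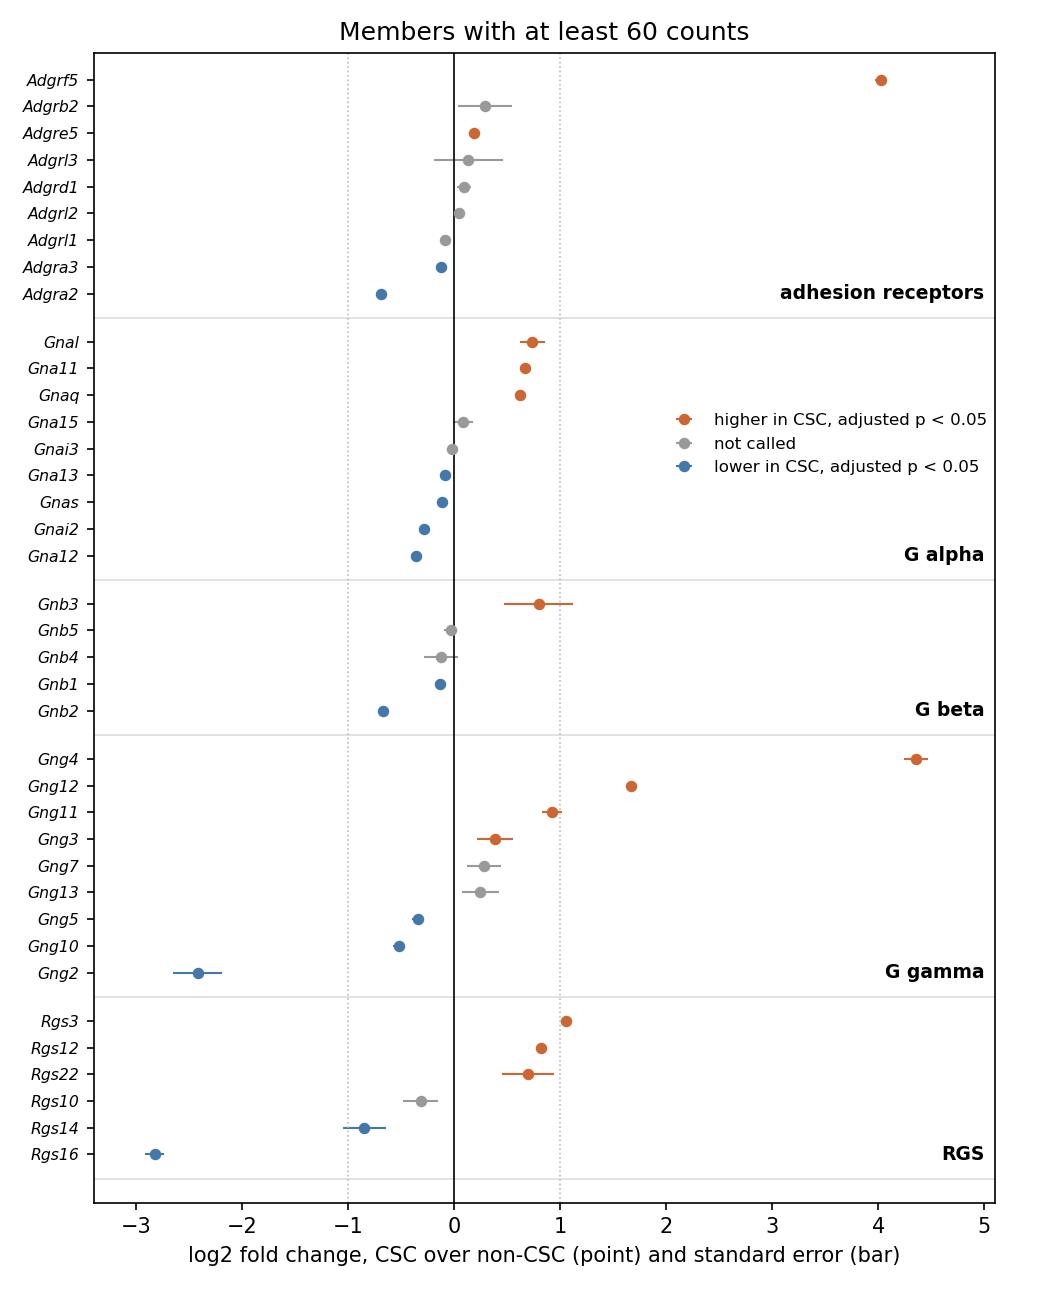
Log2 fold change of CSC over non-CSC (horizontal axis, point) with its standard error (bar) for the 38 genes with at least 60 counts, by class. Orange points were higher in CSC and blue points lower at an adjusted p under 0.05, grey points were not called, and dotted lines mark a 2-fold change; Gng4 and Adgrf5 lie far to the right at 4.36 and 4.02, and Rgs16 and Gng2 to the left at -2.83 and -2.42.

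The 6 genes past 2-fold are 1 receptor, 3 Gγ genes and 2 RGS genes: Adgrf5, Gng4, Gng12 and Rgs3 rose, and Rgs16 and Gng2 fell. No Gα or Gβ gene changed by 2-fold. The letters in front of the 3 with the largest changes are shown here because they are the DNA just upstream of a listed transcript start. Each is the 250 bases upstream of the most 5′ start in a RefSeq table of promoters (GRCm38.p6), 5′ to 3′ on the strand of the gene, with motif matches in capitals. For Adgrf5 the RefSeq gene record begins inside this window, at 43360329, so the later part of the window lies within the gene. The Rgs16 window holds 4 bases of GENCODE exons.
Adgrf5, chr17:43360181-43360430, plus strand: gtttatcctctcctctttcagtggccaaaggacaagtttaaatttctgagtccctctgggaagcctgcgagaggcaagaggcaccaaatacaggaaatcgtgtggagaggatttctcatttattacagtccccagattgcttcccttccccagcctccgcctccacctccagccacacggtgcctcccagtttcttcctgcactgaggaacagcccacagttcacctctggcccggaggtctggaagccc
Gng4, chr13:13783809-13784058, plus strand: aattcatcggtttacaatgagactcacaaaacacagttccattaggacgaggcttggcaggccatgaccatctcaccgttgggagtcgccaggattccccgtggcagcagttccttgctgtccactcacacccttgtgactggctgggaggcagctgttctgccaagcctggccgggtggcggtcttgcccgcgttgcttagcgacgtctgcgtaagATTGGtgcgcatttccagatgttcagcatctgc
Rgs16, chr1:153740103-153740352, plus strand: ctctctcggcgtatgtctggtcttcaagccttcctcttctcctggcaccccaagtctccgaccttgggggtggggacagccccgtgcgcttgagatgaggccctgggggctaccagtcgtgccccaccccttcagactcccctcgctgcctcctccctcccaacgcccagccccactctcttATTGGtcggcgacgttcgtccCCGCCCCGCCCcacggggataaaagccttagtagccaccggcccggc
Matches were sought on both strands for the cAMP response element TGACGTCA, AP-1 (TGANTCA), the core of C/EBP-ATF composite sites (TGATGNAA), the hypoxia response core (ACGTG), the CCAAT box (CCAAT), the TATA box (TATAAA) and the GC box (GGGCGG). Among all 32851 upstream windows of this length in the RefSeq table these were found in 1.55%, 6.75%, 3.45%, 16.6%, 33.8%, 12.4% and 32.7%. The Adgrf5 window held none of the 7. The Gng4 window held 1 CCAAT match, on the opposite strand. The Rgs16 window held 1 CCAAT match and 2 GC box matches that share a base, all on the opposite strand. G and C made up 54.4%, 56.4% and 66.4% of the windows of Adgrf5, Gng4 and Rgs16, beside a median of 52.4% over all windows, and the numbers of CG pairs were 5, 13 and 17 beside a median of 6.

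**Figure D2:**
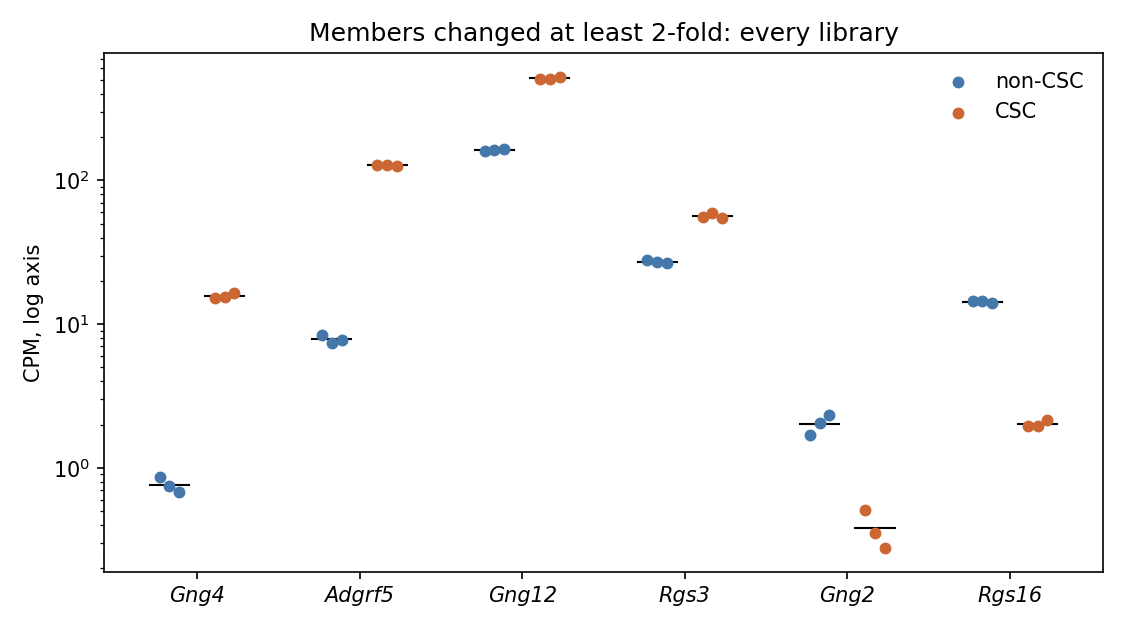
CPM on a log axis of the 6 genes changed at least 2-fold, with a point for each library and a line at the group mean. For each gene the 3 non-CSC points (blue) and the 3 CSC points (orange) are apart, from Gng4 at left (0.763 against 15.7 CPM) to Rgs16 at right (14.3 against 2.01 CPM).

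Among the receptors, Adgrf5 showed by far the largest change. Adgrf5, also called GPR116, is known for the control of surfactant in the alveoli of the lung. Its counts were 263, 257 and 273 in non-CSC and 3544, 3605 and 3654 in CSC, which is 8.38, 7.41 and 7.72 CPM in non-CSC and 129, 127 and 126 CPM in CSC. All CSC libraries lay above all non-CSC libraries, with no library near the other group. The log2 fold change was 4.02 ± 0.052 SE, a 16.2-fold difference (edgeR adjusted p = 5.74e-25). The gene lies on chromosome 17 at 43360329 to 43459557 (GRCm38), and the 30 tested genes next to it had a median log2 fold change 0.38 above that of all genes. Adgrf5 is also known from endothelial cells. Of 8 endothelial markers 3 were tested, Vwf higher (0.899 to 5.46 CPM) and Esam and Pecam1 lower; Tek and Emcn were at 0 in all libraries. The summed level of the 8 markers was 78.5 to 83.7 CPM in non-CSC and 77.2 to 78.1 CPM in CSC, nearly all of it Esam, and their part in the Adgrf5 difference was not tested.

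The A subfamily moved the other way. Adgra2 (GPR124), a co-receptor for Wnt7 ligands in brain vessels, read 173, 172 and 168 CPM in non-CSC and 108, 107 and 103 CPM in CSC. The CSC values all lay below the non-CSC values, with a log2 fold change of -0.69 ± 0.036 SE and an adjusted p of 6.69e-14 (edgeR). Adgra3 fell by 0.12 on the log2 scale, a small change whose call was lost under 4 of 15 alternatives (edgeR adjusted p up to 0.242, that of library-size scaling). Adgre5 (CD97), a leukocyte and tumour-cell receptor that binds CD55, rose by 0.19 on the log2 scale, from 46.2, 45.5 and 42.5 CPM in non-CSC to 50.8, 49.1 and 52.8 CPM in CSC (edgeR adjusted p = 0.00151). In GENCODE 24.6% of its exon bases are shared with other genes, Ddx39 among them, so its level is uncertain.

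The latrophilins, receptors of teneurins and FLRT proteins, were not called. Adgrl1 was the highest of them per kilobase of exon, though Adgrl2 was the higher per kilobase of the longest transcript. Adgrl1 read 39.7, 38.9 and 37.3 CPM in non-CSC and 36.7, 36.2 and 36.3 CPM in CSC, and Adgrl2 read 57.1, 55.8 and 55.4 CPM in non-CSC and 56.9, 56.98 and 59.5 CPM in CSC. The groups of Adgrl1 were apart, but by little, and those of Adgrl2 overlapped. Their log2 fold changes were -0.08 and 0.04 (edgeR adjusted p = 0.116 and 0.393), and that of Adgrl3, close to the minimum of counts, was 0.13 ± 0.33 SE. Adgrd1 (GPR133), a receptor coupled to Gs, read 28.6, 24.5 and 23.8 CPM in non-CSC and 29.3, 26.8 and 26.1 CPM in CSC, and its groups overlapped (log2 fold change 0.10, edgeR adjusted p = 0.214). Adgrb2, a brain-type receptor of the BAI group, read 0.829, 0.548 and 0.905 CPM in non-CSC and 1.27, 0.672 and 0.862 CPM in CSC and was not called either. Adgrd1 and Adgrl2 were called higher under 4 and 3 of the 15 alternatives, plain library-size scaling among them, and Adgrl1 lower under 1.

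The other 18 adhesion receptors had fewer than 60 counts in all. Adgrb1, Adgre1, Adgrg2, Adgrg3 and Adgrg4 were at 0 in every library, which allows up to 0.0289 CPM in non-CSC and 0.0361 CPM in CSC (3 counts over the summed totals of a group). Adgre1 encodes F4/80, the classical macrophage antigen. All 7 receptors of the G subfamily fell under the minimum, as did Adgrl4, known from endothelial cells, with 4 counts. Around the minimum, Adgrg1 had 45 counts and Rgs9 54 just below it, and Adgrl3 had 69 and Gnb3 91 just above. Of 11 leukocyte markers 4 were tested, with Itgam (from 0.741 to 10.2 CPM), Csf1r and Cd14 higher and Cd68 lower. Their summed level was 47.99 to 51.1 CPM in non-CSC and 65.8 to 68.1 CPM in CSC; Cd3e, Ncr1 and Tyrobp were at 0, and Ptprc, the common leukocyte antigen, averaged 0.0864 and 0.152 CPM.

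Per kilobase of exon, which allows genes to be set side by side and is given below as mean ± SD over the 3 libraries of a group, the 9 receptors with values summed to 62.2 ± 1.85 CPM per kb in non-CSC and 65.3 ± 0.523 CPM per kb in CSC. The receptors that made up this sum changed. Adgra2 held 47.5% ± 0.679 in non-CSC and 28.1% ± 0.524 in CSC, and Adgrf5 1.398% ± 0.0709 in non-CSC and 21.6% ± 0.182 in CSC. Adgre5 held 19.1% ± 0.348 in non-CSC and 20.7% ± 0.732 in CSC. In non-CSC Adgrf5 thus ranked below Adgra2, Adgre5, Adgra3, both main latrophilins and Adgrd1, and in CSC its mean share was the second highest, though Adgre5 stood above it in CSC replicate 3. With the length of the longest transcript in place of all exons, the share of Adgrf5 was 1.15% and 17.9%, and in CSC Adgre5 stood above it at 20.3%.

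**Figure D3:**
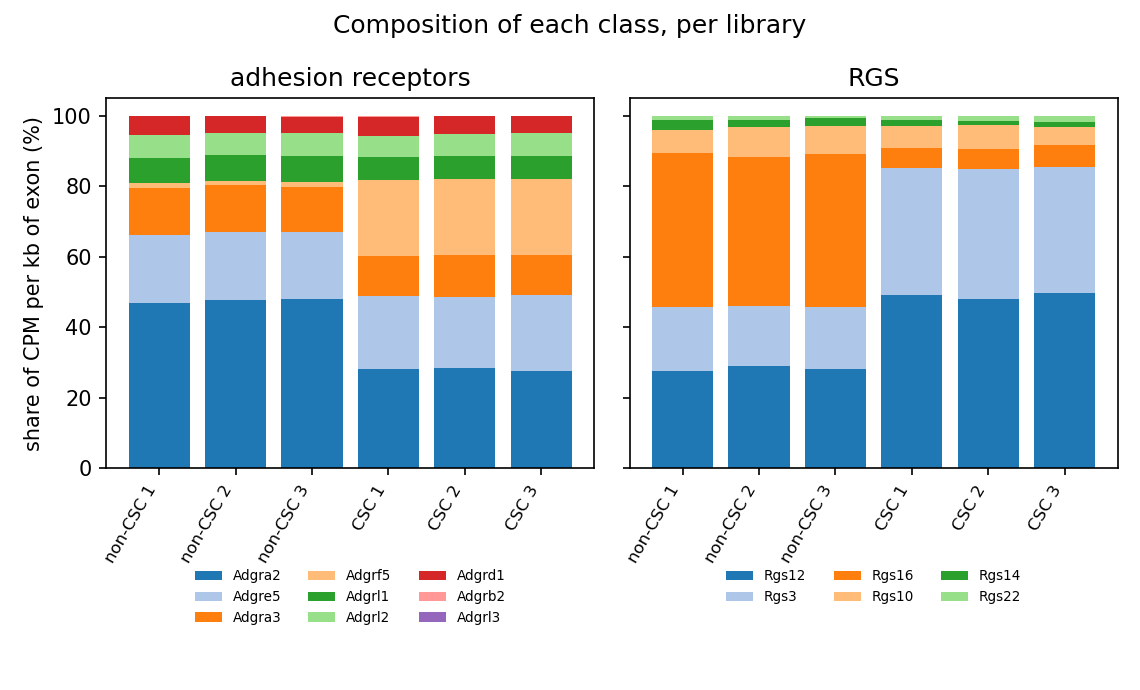
Share of each gene in the summed CPM per kb of its class, in percent (vertical axis), for the adhesion receptors and the RGS genes with values in each of the 6 libraries (bars). Adgrf5 widens from 1.40% to 21.6% of the receptor sum while Adgra2 narrows from 47.5% to 28.1%, and Rgs16 narrows from 43.0% to 5.95% of the RGS sum.

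Of the 13 Gα genes 9 had values, and 3 rose and 4 fell in CSC, all by less than 2-fold. Both widely expressed members of the Gq/11 family rose. Gnaq read 111, 112 and 111 CPM in non-CSC and 170.2, 168 and 176 CPM in CSC, and Gna11 read 61.5, 62.04 and 60.1 CPM in non-CSC and 97.1, 96.03 and 98.4 CPM in CSC. Neither pair of groups overlapped, and the log2 fold changes were 0.62 ± 0.036 SE and 0.67 ± 0.039 SE (edgeR adjusted p = 3.52e-13 and 4.94e-13). Gnaq lies on chromosome 19, whose tested genes had a median log2 fold change of -0.24, and Gna11 on chromosome 10, with a median of 0.04. The median of the tested genes next to each differed from that of all genes by -0.15 for Gnaq and 0.26 for Gna11. The surroundings thus moved against the rise of Gnaq and with that of Gna11, and their part in either was not tested. Gna15, the blood-cell member of the family, read 6.25, 5.59 and 4.95 CPM in non-CSC and 5.95, 5.903 and 5.86 CPM in CSC and was not called, and Gna14 had 25 counts in all.

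The Gi, Gs and G12/13 subunits that were called lower fell by 0.08 to 0.36 on the log2 scale. The median size of change over all genes tested was 0.33. Gnai2, the most abundant Gi gene per length, read 362, 345 and 371 CPM in non-CSC and 308, 289 and 286 CPM in CSC, without overlap (log2 fold change -0.29 ± 0.039 SE, edgeR adjusted p = 7.04e-07). Gnai3 read 242, 232 and 249 CPM in non-CSC and 228, 244 and 242 CPM in CSC; the groups overlapped and the log2 fold change was -0.02 (edgeR adjusted p = 0.676). Gnas, which encodes Gαs, read 1186, 1149 and 1138 CPM in non-CSC and 1073, 1059.6 and 1068 CPM in CSC and fell by 0.12 on the log2 scale, a call not kept under library-size or upper-quartile scaling (edgeR adjusted p = 0.172 and 0.122). GENCODE has 22% of its exon bases under other genes, and without a stated strand setting reads of its antisense transcripts cannot be told apart from its own. Gnal, the olfactory and striatal relative of Gnas, rose from 2.805, 2.39 and 2.405 CPM in non-CSC to 4.57, 4.03 and 4.03 CPM in CSC (log2 fold change 0.74 ± 0.12 SE, edgeR adjusted p = 9.50e-06), and stayed far under Gnas, at 0.227 and 0.377 CPM per kb in non-CSC and CSC beside 103 and 95.4 CPM per kb.

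Gna12 fell, with values of 53.5, 52.5 and 50.9 CPM in non-CSC and 41.3, 41.3 and 39.7 CPM in CSC and a log2 fold change of -0.36 ± 0.045 SE (edgeR adjusted p = 2.44e-07). Gna13, the more abundant of that pair per length, read 122, 126 and 128 CPM in non-CSC and 115, 118 and 122 CPM in CSC. Its groups were barely apart, and the fall of 0.08 on the log2 scale passed the threshold narrowly (edgeR adjusted p = 0.0498) and was lost under 9 of 15 alternatives, among them leaving out non-CSC replicate 2 or 3 or CSC replicate 1 or 2 (edgeR adjusted p 0.0941 to 0.116). Gnai1, Gnao1 and Gnaz, also of the Gi/o/z family, had 3, 15 and 0 counts in all.

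The Gβ genes were led by Gnb2, which fell. Its values were 765, 773 and 729.7 CPM in non-CSC and 487, 479 and 458 CPM in CSC, without overlap, for a log2 fold change of -0.67 ± 0.036 SE (edgeR adjusted p = 1.31e-13). Gnb1 read 434, 447 and 419 CPM in non-CSC and 395, 405 and 386 CPM in CSC and fell by 0.13 on the log2 scale, which those same scalings did not call (edgeR adjusted p = 0.113 and 0.0834). Gnb5, the Gβ that pairs with RGS proteins of the R7 subfamily, read 26.5, 22.98 and 24.9 CPM in non-CSC and 22.98, 25.2 and 24.5 CPM in CSC and was not called, and Gnb4, at 1.77 and 1.62 CPM, was not called either. Gnb3, at 0.366 and 0.634 CPM, was called higher with groups that overlapped. That call was lost with DESeq2, with limma-voom and when any 1 of 4 of the 6 libraries was left out (non-CSC replicates 2 and 3, CSC replicates 1 and 3; edgeR adjusted p up to 0.298).

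The Gγ genes held the widest range of changes, 4 higher and 3 lower of 9 with values. Gng4, a Gγ known mainly from brain, rose from counts of 27, 26 and 24 in non-CSC to 419, 435 and 477 in CSC. These were 0.861, 0.7495 and 0.679 CPM in non-CSC and 15.2, 15.4 and 16.4 CPM in CSC, so the groups were far apart, with a log2 fold change of 4.36 ± 0.11 SE, or 20.5-fold (edgeR adjusted p = 1.43e-19). Gng12, the widely expressed Gγ, rose from a high level: 161, 162 and 165 CPM in non-CSC and 509.8, 509 and 527 CPM in CSC. Its log2 fold change was 1.66 ± 0.036 SE, or 3.17-fold (edgeR adjusted p = 3.85e-21). Gng11 read 4.398, 4.15 and 4.499 CPM in non-CSC and 8.602, 8.66 and 7.48 CPM in CSC and rose by 0.92 on the log2 scale (edgeR adjusted p = 7.43e-09). The tested genes next to Gng11 had a median log2 fold change 0.34 above that of all genes.

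Gng2 fell, with counts of 53, 71 and 83 in non-CSC and 14, 10 and 8 in CSC. In CPM it read 1.69, 2.05 and 2.35 CPM in non-CSC and 0.508, 0.353 and 0.276 CPM in CSC, without overlap, and the log2 fold change was -2.42 ± 0.23 SE (edgeR adjusted p = 3.90e-09). Of the 50-base words of its longest transcript 22.7% also occur in other transcripts, among them the pseudogene Gng2-ps1, so its level is uncertain. Gng10 and Gng5, common Gγ genes, fell by 0.53 and 0.34 on the log2 scale, from 59.4 to 41.3 CPM and from 66.9 to 52.7 CPM (edgeR adjusted p = 2.24e-09 and 2.67e-06). Exons of Gng10 lie to 72% under another annotated gene, chiefly Gm20503, so reads of both cannot be told apart. The 30 tested genes next to Gng5 on chromosome 3 had a median log2 fold change 0.29 below that of all genes. Gng3 rose by 0.39 on the log2 scale, a call lost under 8 of 15 alternatives, among them leaving out any 1 of non-CSC replicates 1 and 2 and CSC replicates 1 and 2 (edgeR adjusted p up to 0.245). Gng7 and Gng13 were not called, and Gng8 had 4 counts. In GENCODE 24.2% of the exon bases of Gng3 and 51.6% of those of Gng13 are shared with other genes, so both levels are uncertain.

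The last 39 coding bases of 6 Gγ genes are shown here, 5′ to 3′ from GENCODE transcripts (M21, GRCm38), since this end encodes the lipid anchor; capitals mark the 4 codons of the anchor box and the stop codon follows in lower case.
Gng4: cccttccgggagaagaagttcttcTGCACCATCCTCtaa
Gng2: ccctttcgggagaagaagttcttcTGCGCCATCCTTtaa
Gng3: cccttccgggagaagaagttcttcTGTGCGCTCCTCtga
Gng12: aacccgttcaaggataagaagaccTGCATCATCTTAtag
Gng7: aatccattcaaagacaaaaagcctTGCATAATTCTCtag
Gng5: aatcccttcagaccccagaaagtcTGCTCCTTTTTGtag
All 6 begin the box with TGC or TGT and end it with a codon starting with CT or TT. This ending is not shared by every measured Gγ gene: Gng11, which is not shown, begins its box with TGT but ends it with TCA. Over the whole coding sequence Gng4 was closest to Gng2 (73.7% identical bases) and then to Gng3 (71.5%), so the largest rise and the largest fall among the Gγ genes were in each other's closest relatives. Gng12 was closest to Gng2 (71.3%) and Gng7 (69.1%). The share of 50-base words of the Gng4 transcript that occur in transcripts of other genes rounded to 0%.

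Summed per kilobase of exon, Gβ genes gave 332 ± 9.75 CPM per kb in non-CSC and 240.3 ± 5.93 CPM per kb in CSC and Gγ genes 112 ± 4.98 CPM per kb in non-CSC and 177 ± 2.62 CPM per kb in CSC. The Gβ sum was thus 0.724 times and the Gγ sum 1.58 times its non-CSC level in CSC, while the Gα sum went from 343 to 331 CPM per kb. Gng12 held 30.7% ± 1.03 in non-CSC and 61.7% ± 0.823 in CSC of the Gγ sum. Gng10 held 40.3% ± 0.919 in non-CSC and 17.8% ± 0.115 in CSC, and Gng5 21.6% ± 0.251 in non-CSC and 10.8% ± 0.541 in CSC. By these values the leading Gγ gene was Gng10 in each non-CSC library and Gng12 in each CSC library. The Gng10 level, and so its lead in non-CSC, is uncertain, since 72% of its exon bases lie under another gene. Gng4 reached 2.66% in CSC from 0.205%, so its large fold change is of a minor subunit. Gnb2 held 66.9% ± 0.135 in non-CSC and 58.03% ± 0.6402 in CSC of the Gβ sum and Gnb1 nearly all of the rest.

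Among the Gα genes, Gnas, Gnai2 and Gnai3 together held most of the sum in both groups. The share of Gnaq was 5.25% ± 0.117 in non-CSC and 8.37% ± 0.1901 in CSC and that of Gna11 4.36% ± 0.135 in non-CSC and 7.16% ± 0.0767 in CSC. That of Gnai2 was 27.7% ± 0.6201 in non-CSC and 23.5% ± 0.905 in CSC. The size of these shares depends on the length used, though Gnas led with either. With the longest transcript Gnas held 48.4% in non-CSC and 47.4% in CSC, in place of 30.2% and 28.8%. Its exons add up to 11186 bases and its longest transcript to 3947. The Gγ shares moved little with that choice, to 30.8% and 62.1% for Gng12. These shares are descriptions, with no test.

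**Figure D4:**
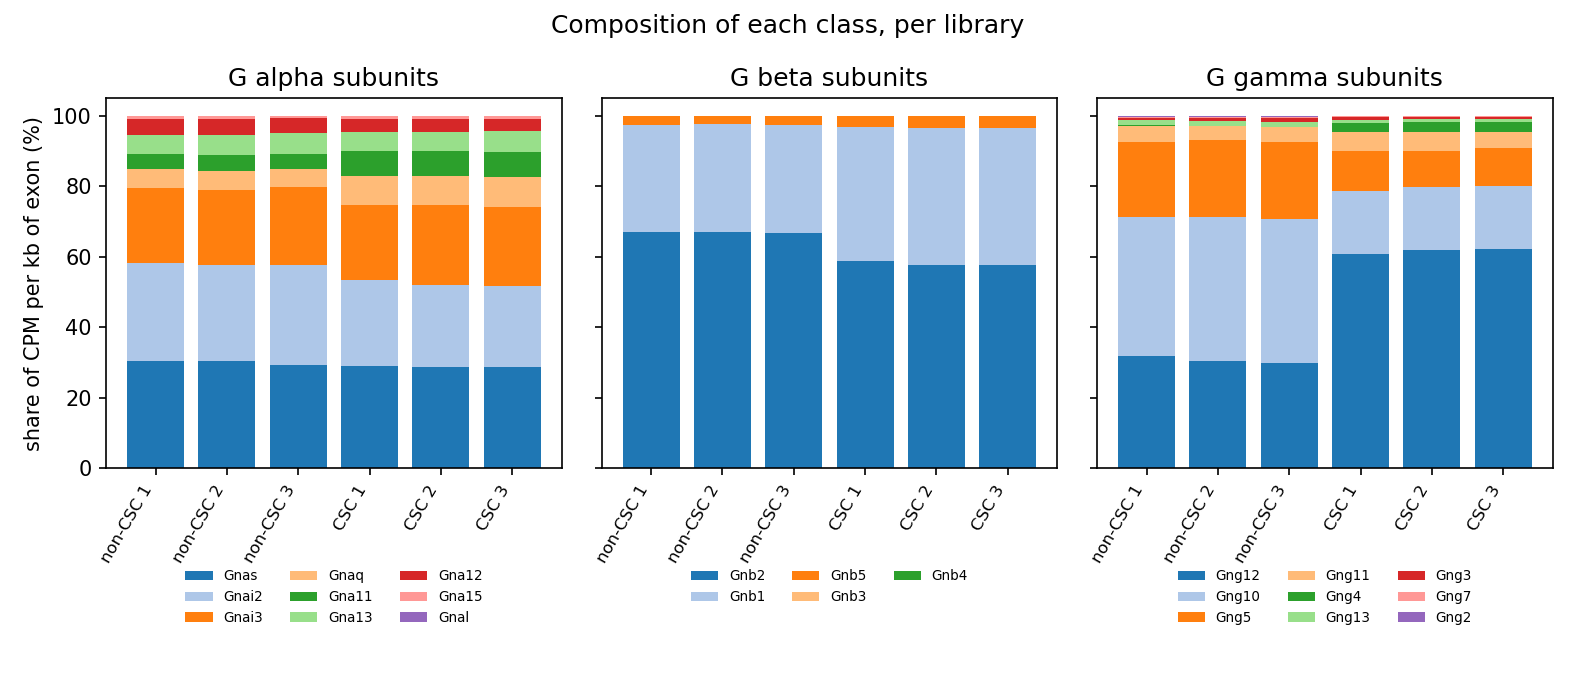
Share of each subunit gene in the summed CPM per kb of exon of its class, in percent (vertical axis), for the Gα, Gβ and Gγ genes with values in each of the 6 libraries (bars). Gng12 grows from 30.7% of the Gγ sum in non-CSC to 61.7% in CSC as Gng10 shrinks from 40.3% to 17.8%, while Gα and Gβ keep their leading genes. The level of Gng10 is uncertain, as its exons overlap another gene.

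Of the 21 RGS genes only 6 had values, and 3 rose and 2 fell. Rgs16, a small RGS protein of the R4 subfamily that acts on Gi and Gq and is known to be induced by many stimuli, fell most. Its counts were 458, 499 and 496 in non-CSC and 54, 55 and 62 in CSC, or 14.6, 14.4 and 14.03 CPM in non-CSC and 1.96, 1.94 and 2.14 CPM in CSC. The groups were far apart, with a log2 fold change of -2.83 ± 0.093 SE and a 7.12-fold lower level in CSC (edgeR adjusted p = 1.25e-17). Its neighbours on chromosome 1 did not share the direction: the 30 tested genes next to it had a median log2 fold change 0.27 above that of all genes. Rgs3, the other R4 gene with values, rose, with 28.01, 26.9 and 26.6 CPM in non-CSC and 55.6, 59.5 and 54.6 CPM in CSC and a log2 fold change of 1.06 ± 0.049 SE (edgeR adjusted p = 7.15e-15). The R4 subfamily thus held both the largest fall and the largest rise among the RGS genes.

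In the R12 subfamily, Rgs12, a large protein that also binds Ras and inactive Gαi, read 33.6, 35.8 and 32.99 CPM in non-CSC and 59.9, 60.4 and 60.2 CPM in CSC. It rose without overlap (log2 fold change 0.82 ± 0.046 SE, edgeR adjusted p = 2.41e-13). Rgs14, its close relative, fell at a low level, 1.85, 1.27 and 1.44 CPM in non-CSC and 0.944, 0.778 and 0.793 CPM in CSC (log2 fold change -0.85 ± 0.20 SE, edgeR adjusted p = 7.74e-04). Rgs10 read 1.59, 2.104 and 1.84 CPM in non-CSC and 1.52, 1.697 and 1.24 CPM in CSC; the groups overlapped and it was not called. Rgs22, which belongs to none of the subfamilies here, rose by 0.69 on the log2 scale (0.805 to 1.29 CPM), a call lost with DESeq2 and without non-CSC replicate 3 or CSC replicate 3 (edgeR adjusted p = 0.127 and 0.0763).

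The other 15 RGS genes had between 0 and 54 counts. They include Rgs2 with 1 count, Rgs4 with 7 and Rgs5, a pericyte marker, with 15. All of the R7 subfamily, the partners of Gnb5, and all of the RZ subfamily fell under the minimum. Of 7 pericyte and smooth muscle markers 2 were tested and both were higher, beside 33.4% of all genes. These were Kcnj8 (1.14 to 5.07 CPM) and Des (1.13 to 1.93 CPM). Pdgfrb, Cspg4, Abcc9, Myh11 and Acta2 averaged at most 0.201 CPM in either group. The summed level of the 7 markers was 2.49 to 2.84 CPM in non-CSC and 7.21 to 7.86 CPM in CSC, most of it Kcnj8 and Des. Of 6 fibroblast markers 3 were tested and higher, with a sum of 555 to 589 CPM in non-CSC and 1196 to 1243 CPM in CSC that was nearly all Dcn, and Lum and Dpt at 0. Of 7 neural and glial markers 1 was tested and not called, at a sum of 0.934 to 1.02 CPM in non-CSC and 0.931 to 1.41 CPM in CSC, with Snap25 at 0. The part of these markers in the changes of Gng4, Rgs3 and Rgs16 was not tested.

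Per kilobase of exon, the 6 RGS genes summed to 14.2 ± 0.369 CPM per kb in non-CSC and 14.5 ± 0.3297 CPM per kb in CSC, so the summed level differed by less than the spread of the libraries while its makeup changed. Rgs16 held 43.05% ± 0.7298 in non-CSC and 5.95% ± 0.422 in CSC. Rgs12 held 28.2% ± 0.669 in non-CSC and 48.98% ± 0.981 in CSC, and Rgs3 17.7% ± 0.519 in non-CSC and 36.1% ± 0.802 in CSC. With the longest transcript as length the RGS sum in CSC was 1.25 times that in non-CSC, so the near equality rests on the lengths used. The leading gene then changes too, to Rgs12 in non-CSC (29.6% beside 29.1% for Rgs16) and to Rgs3 in CSC (45.8%), but the fall of the Rgs16 share, to 3.28%, remains.

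The other genes of the pathway were taken from 9 lists. Among the ligands of adhesion receptors, 10 of 23 were tested and 1 rose and 7 fell; the median change was -0.38 on the log2 scale beside 0.01 for all genes. Flrt3 and Tenm4, ligands of latrophilins, fell by 1.65 and 1.23 on the log2 scale (4.24 to 1.34 CPM and 17.8 to 7.54 CPM), and Rtn4r by 1.11. Tgm2, a ligand of Adgrg1 that was named after its value was seen, was the gene that rose, by 0.82. Of the cadherin-type receptors that the symbol rule leaves out, only Celsr1 was tested; it rose by 0.99 at under 1 CPM.

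Among the 7 receptor kinases and arrestins, which switch off activated receptors, 6 were tested and 3 rose and 2 fell. Grk2 fell by 0.84 on the log2 scale (193 to 108 CPM), while Arrb1 rose by 0.73 and Grk5 by 0.60. Of 17 other regulators and chaperones 15 were tested, with 3 higher and 7 lower and a median of -0.14. Axin2, a Wnt target with an RGS domain, rose by 1.20, and Snx13 and Gpsm3, a sorting nexin with an RGS domain and an inhibitor of Gαi exchange, fell by 0.93 and 0.90.

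On the side of cyclic AMP, 5 of 10 adenylyl cyclases were tested and 3 rose and 1 fell. Adcy3 rose by 1.38 and Adcy7 by 1.35 from under 1 CPM, and Adcy1 fell by 0.78 on the log2 scale (48.5 to 28.2 CPM). Adcy6, the most counted of the 5 and named after its value was seen, rose by 0.23. Of 18 cyclic AMP effectors and phosphodiesterases 15 were tested, with 4 higher, 7 lower and a median of -0.07. Pde7b and the kinase subunit gene Prkar1b fell by 1.37 and 1.35, and Pde8b rose by 1.12. CREB targets, the transcriptional readout of cyclic AMP, were split, with 3 of 8 tested higher and 3 lower. Areg, the amphiregulin gene, fell by 3.06 (68.4 to 8.199 CPM) and Per1 by 1.08, while Nr4a2 rose by 0.76.

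The phospholipase C branch, downstream of Gαq and Gα11, was a list of phospholipase C beta, IP3 receptor and protein kinase C genes. Of its 14 genes 10 were tested and 6 rose and 2 fell, with a median of 0.27. Plcb3 fell by 0.82 (270.4 to 153 CPM), while the protein kinase C gene Prkch and the IP3 receptor gene Itpr1 rose by 0.59 and 0.52. Of the phospholipase C beta genes themselves only Plcb3 and Plcb1 were tested. Plcb1, named after its value was seen, rose by 0.32 (18.6 to 23.3 CPM). Of 10 effectors of Gβγ only 2 were tested. Prex2, an exchange factor of Rac driven by Gβγ and PIP3, rose by 1.90 on the log2 scale (56.03 to 209 CPM), and Pik3cb fell by 0.15. In these lists 66.7% to 100% of the tested genes were called, beside 66.5% of all genes and 74% of the protein-coding genes tested. The lists at 100% had only 1 and 2 genes tested.

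**Figure D5:**
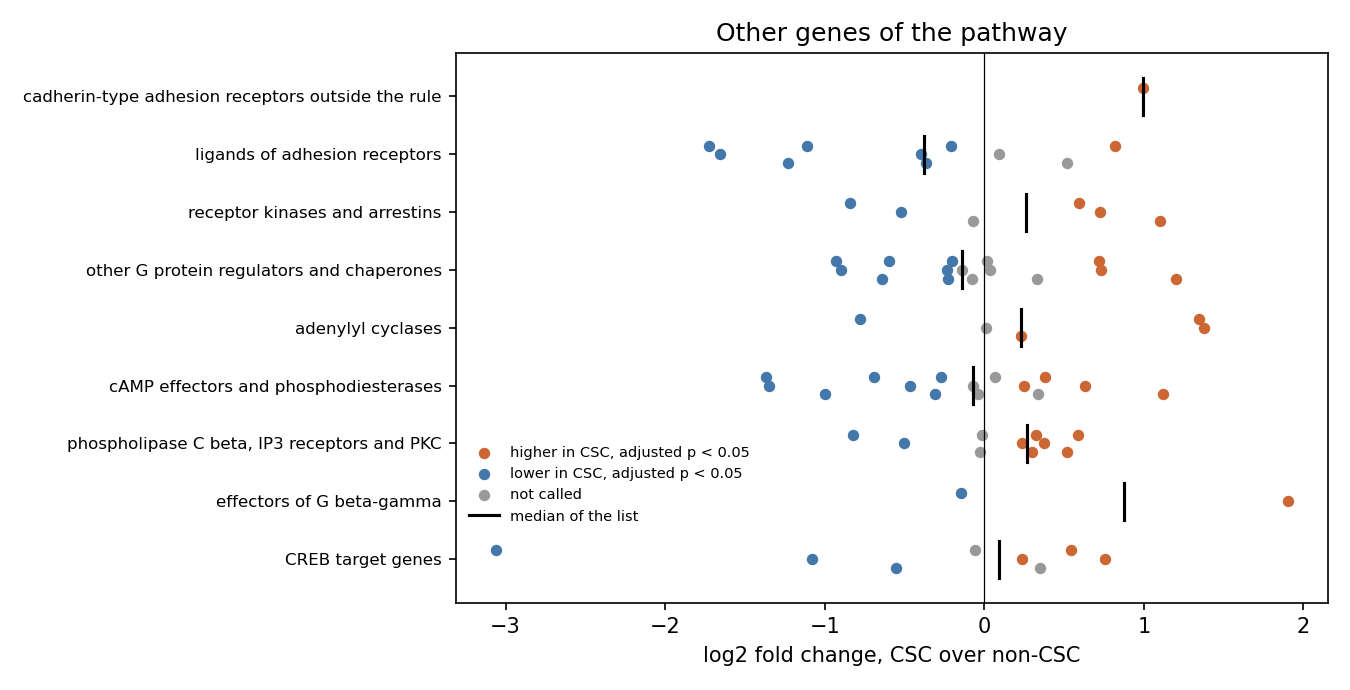
Log2 fold change of CSC over non-CSC (horizontal axis) of each tested gene in 9 lists of the pathway (rows), in orange or blue where called higher or lower at an adjusted p under 0.05 and in grey where not, with a black bar at the median of the list. Most lists hold genes on both sides of 0; the extremes are Areg at -3.06 and Prex2 at 1.90.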

How the data were processed

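What the authors deposited is 1 table of unnormalized counts for 49523 symbols; the submitters' processing notes name GRCm38. Per the labels' protocols, each NEBNext Ultra II library started from 1.3 ug of Trizol-extracted RNA. No source used here names the aligner, counter, annotation, strand setting or filters. From these counts, genes were filtered (filterByExpr), scaled (TMM) and compared with edgeR 4.0.16 (glmQLFit, robust, no covariate), with Benjamini-Hochberg adjustment over all 17630 genes tested; the call threshold was 0.05. The SE is the size of the log2 fold change over the root of F. CPM uses TMM-scaled library sizes. CPM per kb divides by the union of GENCODE M21 exons. The replicates differed by more than sampling noise (chi-square per degree of freedom 3.21 to 7.30). The method was also run on simulated counts. These were drawn from the kind of model that it fits, with the spread of these libraries, so that run cannot check the model or the replicates. The rule gives in every library the genes changed at least 2-fold and the highest per kilobase of exon in each role group; other members given so were chosen after their values were seen. It names in each pathway list up to 3 with the largest called changes and a mean of at least 1 CPM. The members and lists were chosen with earlier results of these data known. The planned protein sequences were not used here, and 1 planned gene list and 2 coding ends are not reported here. Alternatives were other scalings, filters and tests (limma 3.58.1 voom, DESeq2 1.42.0), a chromosome offset, a replicate block and leaving out each library.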

Additional observations from a re-analysis of the deposited data

How the results depend on the processing

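Of the 26 genes called, 19 kept their direction and side of the threshold under every alternative that could test them, and 7 lost the call under at least 1 (Adgra3, Gna13, Gnas, Gnb1, Gnb3, Gng3, Rgs22). The 6 genes changed at least 2-fold were called under every alternative that tested them. Their number was 5 with a mean of 50 counts required, where Gng2 was not tested, and 7 without CSC replicate 2, where Gnb3 reached 1.08. Across the libraries left out, 23 to 27 genes were called, 11 to 13 higher and 12 to 14 lower, and 22 with DESeq2 and 23 with limma-voom. With a chromosome offset 29 were called, 16 higher and 13 lower. Gnai3 then reversed, to 0.12 (adjusted p = 0.00764), and the cause was not tested. With a replicate block 25 of the genes were called (12 higher, 13 lower) and 11680 of all genes, against 11732 without. The deviations of same-numbered libraries correlated at -0.01 to -0.03, so no shared effect of the number was seen. Whether same-numbered libraries share a culture or preparation is not stated and was not tested. The block lost the call of Gng3 (edgeR adjusted p = 0.0655). With a minimum of 300 counts, 30 of the 76 genes had values. Mean levels under 1 CPM rest on few counts, which limits Adgrl3, Adgrb2 and Gnb3 in both groups, Gng4 and Rgs22 in non-CSC, and Gng2 and Rgs14 in CSC; the fold changes of Gng4 and Gng2 rest on such levels.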
